A study of Rattus norvegicus with 4 samples.

Results

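Ion channels are the proteins that let potassium, sodium, calcium or chloride ions cross the cell membrane, and the genes described here are those of the voltage-gated, chloride and TRP (transient receptor potential) families. They were chosen by name alone: a probe belonged to the set if its gene symbol on the array was that of a Kcn, Scn, Cacn, Clcn, Trpc, Trpv or Trpm gene. This gave 186 of 41012 probes, for 149 of 35658 gene names. Of the 149 genes, 84 belonged to potassium channels, 25 to calcium channels, 20 to TRP channels, 13 to sodium channels and 7 to chloride channels. The cells were olfactory ensheathing cells, the glia that accompany olfactory axons, grown in culture from the olfactory mucosa and the olfactory bulb of male Fischer rats by one published protocol. Messenger RNA of 4 paired biological replicates was amplified and hybridised to 4 arrays, with mucosa cells in Cy5 and bulb cells in Cy3 on each array. Because the dyes were never swapped, an effect of the dye and an effect of the tissue cannot be told apart. The labels give no age, passage number or purity of the cultures.

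Voltage-gated channels open when the membrane potential changes, and carry the action potential in neurons and muscle. Glia also express many of them, where potassium channels set the resting potential and take part in the buffering of potassium around axons. Chloride channels and transporters of the Clcn family act at the cell surface and in endosomes and lysosomes, and TRP channels are cation channels that respond to lipids, temperature, stretch or oxidants.

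Each probe is a 60-base DNA oligonucleotide that binds the labelled copies of its transcript, so a value belongs to the stretch of transcript shown and not to the whole gene. The sequences of 5 probes behind called genes are given, in lower case throughout because the whole oligonucleotide is the measured site. They were read from the deposited scanner files.
Clcn4-2: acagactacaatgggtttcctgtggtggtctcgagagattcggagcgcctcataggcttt
Kcna5: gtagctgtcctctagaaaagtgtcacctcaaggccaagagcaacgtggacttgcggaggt
Scn2b: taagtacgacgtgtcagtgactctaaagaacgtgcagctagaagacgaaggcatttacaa
Kcnk3: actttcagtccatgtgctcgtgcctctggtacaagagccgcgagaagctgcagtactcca
Cacna1g: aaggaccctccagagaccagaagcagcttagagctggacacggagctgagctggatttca
In the rn4 build, per the file headers, the Clcn4-2 probe lies at chrX:44403560-44403619 (plus strand) and that of Kcna5 at chr4:162896330-162896389 (minus). The Scn2b probe lies at chr8:48077758-48077817 (plus), that of Kcnk3 at chr6:25746848-25746907 (minus) and that of Cacna1g at chr10:83044389-83044448 (minus). An annotation of exons and untranslated regions in this build was not used here. Among all 186 probes, the longest run of bases shared by probes of different channel genes was 13, between Kcnip1 and Kcnk6. The array symbol Clcn4-2 is Clcn4 in the RefSeq table of the GRCr8 assembly, and it was the only one of the 125 names matched by accession that had another symbol there. The other 24 names were matched by symbol.

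Most channel probes gave a signal in both kinds of culture. A probe was counted as detected if the scanner software marked it as well above background on at least 3 of 4 arrays. By that count 150 of 186 channel probes (80.6%) were detected in mucosa cells and 155 (83.3%) in bulb cells, against 86.2% and 87.7% of all 41012 probes. On all 4 arrays in both channels, 135 channel probes (72.6%) were detected, against 77.8% of all probes, and 12 (6.45%) were detected on no array, against 4.51%. Per array, between 145 and 165 channel probes were detected in mucosa cells and between 153 and 162 in bulb cells. Mucosa cells of replicate 3 had the fewest and mucosa cells of replicate 2 the most.

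**Figure D1:**
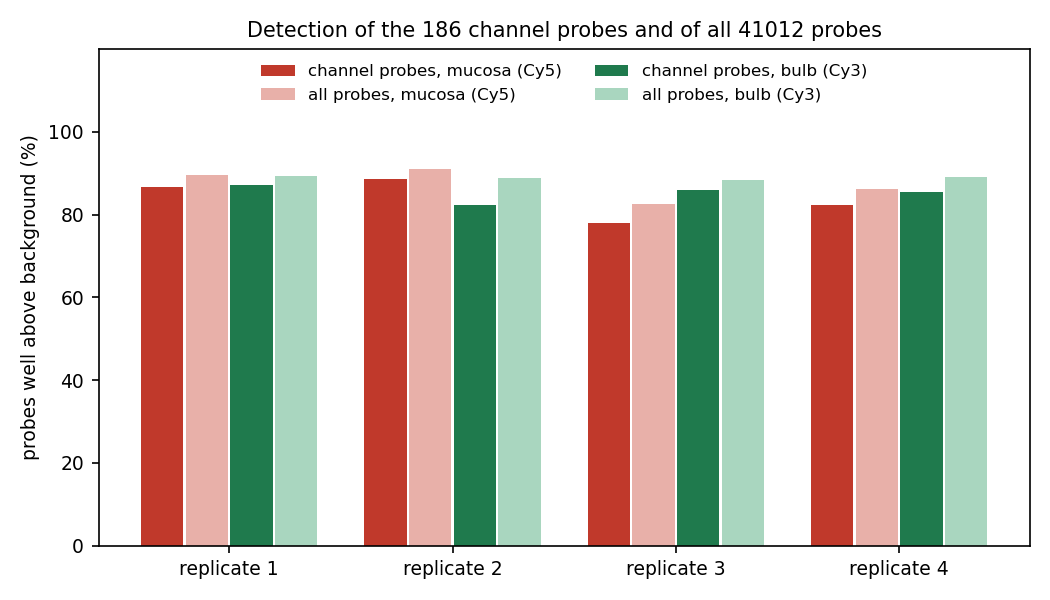
Share of probes well above background on each array (%, vertical axis), for the 186 channel probes and for all probes, in mucosa cells (Cy5) and bulb cells (Cy3). Channel probes lie a few points below all probes on each array, with the lowest share, 78.0%, in mucosa cells of replicate 3.

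For 18 of the 149 genes no probe passed the filter, which asked for detection, as above, in mucosa or bulb cells, and these genes were not tested. They include the potassium channel genes Kcna7, Kcnb2, Kcnc2, Kcnj1 and Kcnv1 and the epithelial calcium channel gene Trpv5, whose probes were detected on 0 arrays in either channel. The others were Cacna1f, Cacnb4, Kcna4, Kcnh2, Kcnh8, Kcnj16, Kcnj6, Kcnk15, Kcnmb2, Kcnq3, Kcns2 and Scn3a, each detected on 1 or 2 arrays of at least 1 channel. Kcnj16 is the partner of Kcnj10 in the inward rectifiers of glia, and its probe was detected on 1 mucosa array and 2 bulb arrays. The remaining 131 genes entered the test, through 158 tested probes, where 89.6% of all probes on the array passed the filter. Because 18 genes did not pass, the genes tested are not the whole family. A gene could also pass through 1 channel alone, the one in which it was detected on more arrays.

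The comparison asks which channel genes mucosa and bulb ensheathing cells express at different levels. Among 131 tested channel genes, limma called 3 higher in mucosa cells and 6 lower, at a Benjamini-Hochberg adjusted p (over all names) under 0.05. The higher ones were the potassium channel genes Kcnk6 and Kcnk3 and the calcium channel gene Cacna1g. The lower ones included the chloride transporter gene Clcn4-2, the potassium channel genes Kcnk10 and Kcna5, the sodium channel gene Scn2b and the TRP gene Trpm2. The share called was 6.87%, close to the 6.62% of all 31868 names (3.24% higher and 3.39% lower), so the family as a whole was not set apart by its number of calls. Likewise 18 channel genes (13.7%) differed at least 2-fold, against 12.9% of all names, and 47 (35.9%) had the same sign on all 4 arrays, against 33.6%. Of the 47, 31 were higher in mucosa cells and 16 lower, where 17.8% and 15.7% of all names were. With replicate 1, 2, 3 or 4 left out, 3, 3, 5 and 5 channel genes were called, while the share called of all names fell to 1.94%, 2.10%, 3.71% and 3.29%.

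Most ratios of channel genes were small. Their median log2 ratio of mucosa over bulb was 0.14, against 0.012 for all names, and 81 of 131 (61.8%) were above 0, against 50.9% of all names. By array the median of the channel genes was -0.16, 0.14, 0.19 and 0.34 for replicates 1 to 4, while the median of all names lay between -0.0036 and 0.047. The lean toward mucosa cells was thus absent on replicate 1, and without replicate 4 the median of the channel genes was 0.045. With median centring in place of loess, the medians were closer, 0.12 for the channel genes and 0.079 for all names. Channel genes were also dimmer, with a median log2 intensity of 8.39 against 9.36 for all names. Signals of mucosa and bulb cells did not overlap for 29 channel genes (22.1%), against 20.8% of all names. All 9 called genes were among the 29, but a call and a lack of overlap rest on the same values. The lack of overlap is therefore no added support for the calls. Pearson's r of the 131 ratios on any pair of arrays lay between 0.31 and 0.56, as a description across genes, which share their arrays and are not replicates.

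**Figure D2:**
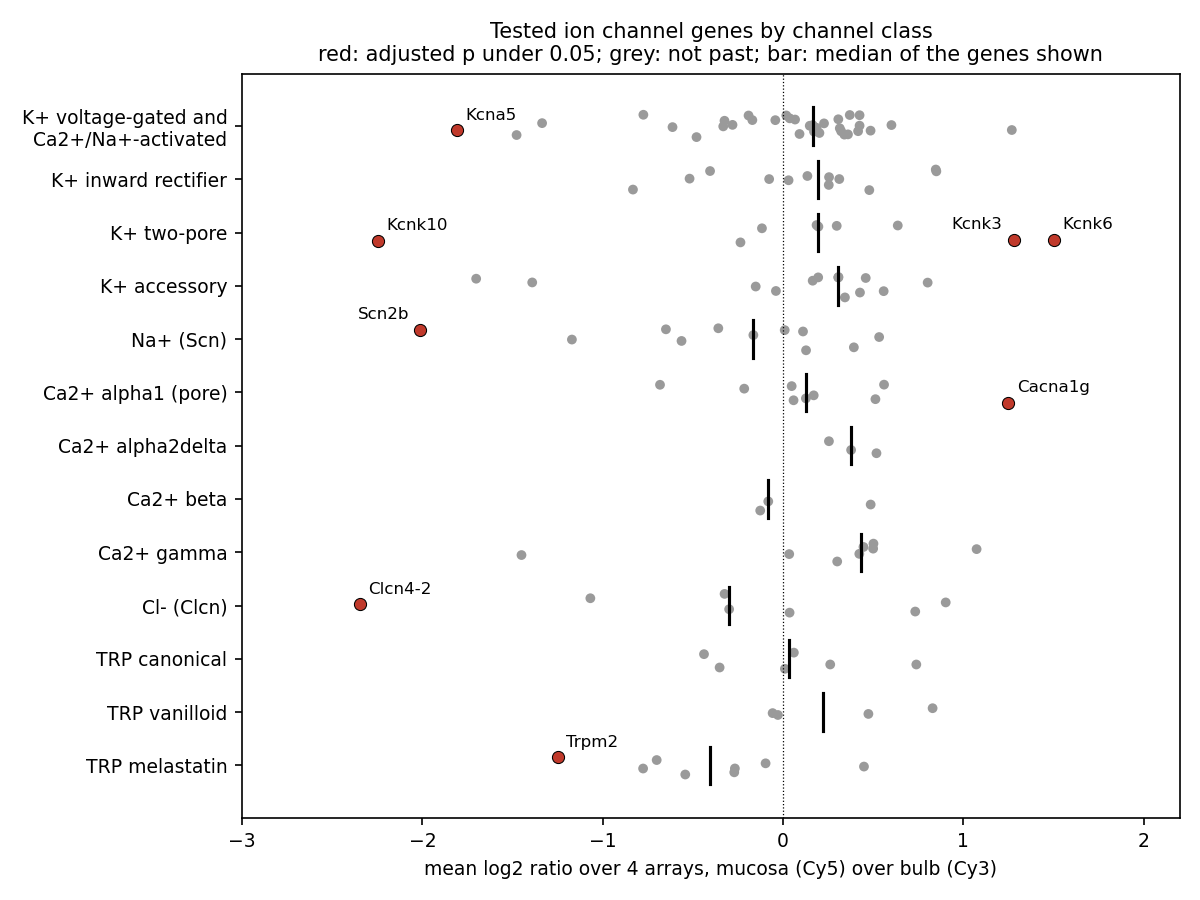
Mean log2 ratio over 4 arrays, mucosa (Cy5) over bulb (Cy3), of 128 of the 131 tested channel genes (points), by class. Red points passed an adjusted p of 0.05, grey ones did not, and bars are medians of the genes shown; the 8 called genes shown run from Clcn4-2 at -2.35 to Kcnk6 at 1.50.

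Markers of several cell types differed between the cultures and are given beside the channel results. Of 12 tested markers of ensheathing and Schwann glia, 0 were higher and 6 lower in mucosa cells (Fabp7, Cdh19, Sox10, S100b and Ngfr among them), and their summed normalised signal was 29116 to 41011 in mucosa and 55465 to 74847 in bulb cells. Of 9 fibroblast markers, 4 were higher and 2 lower, with sums of 254266 to 292006 and 102770 to 148433, and of 5 smooth muscle and pericyte markers 3 were higher and 0 lower, with 90039 to 103276 and 16387 to 27471. Lower in mucosa cells were also 2 of 6 astrocyte markers (1697 to 3173 against 3236 to 4621), 3 of 8 neuronal markers, all neurofilaments (1694 to 3128 against 6116 to 6700), and 2 of 6 markers of oligodendrocytes and myelin (7659 to 8587 against 11476 to 15055), with 0 higher in each. Macrophage markers had 0 higher and 0 lower of 5 (4162 to 9613 against 4206 to 11808), but their ratios differed widely between arrays. On replicates 1 to 4, Cd68 had log2 ratios of 1.84, 0.75, -2.34 and -3.48, and Cd14 had 2.83, 3.36, -1.40 and 0.068. Itgam had 1.47, -0.27, -1.28 and -3.88, Csf1r had 0.56, -0.38, -2.50 and -1.75, and Aif1 had 0.25, 0.31, -0.66 and -0.53. Skeletal muscle markers had 1 higher and 0 lower of 7 (12805 to 15719 against 7423 to 9274). No tested marker was below the background mark on all arrays of a channel. The part of these markers in the channel results was not tested, and in a whole culture fewer cells of a type and less RNA per cell cannot be told apart.

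Tandem-pore potassium channels, which pass a background current that helps to set the resting potential, held 3 of the 9 calls, from 9 tested genes of 10. Kcnk10 encodes a channel of the TREK group, which opens on stretch and lipids. Its normalised signal was 134, 153, 208 and 219 in mucosa cells of replicates 1 to 4 and 587, 478, 1495 and 1127 in bulb cells. The highest mucosa value lay below the lowest bulb value, and the bulb cells of replicates 3 and 4 were the highest. Kcnk10 was 4.74-fold lower in mucosa cells, with a log2 ratio of -2.24 ± 0.50 (SD, n = 4) and a limma adjusted p of 0.00732. Among the 9 called channel genes it was the only one still called whichever array was left out (adjusted p at most 0.0472).

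Kcnk6, of the TWIK group, and Kcnk3, an acid-sensitive channel of the TASK group, went the other way. Kcnk6 had signals of 4095, 4039, 2160 and 4434 in mucosa cells and of 1050, 1292, 1240 and 1462 in bulb cells. Replicate 3 stood lower than the other mucosa cultures but above all 4 bulb cultures. The gene was 2.83-fold higher in mucosa cells, at 1.50 ± 0.49 (SD, n = 4, limma adjusted p = 0.0241), and its second probe gave 1.42 ± 0.49. Kcnk3 had 1275, 1016, 1375 and 1023 in mucosa cells against 572, 465, 515 and 382 in bulb cells, 2.43-fold higher at 1.28 ± 0.16 (limma adjusted p = 0.0186). Its log2 ratio varied little over the arrays, from 1.13 to 1.42. The Kcnk3 call was nonetheless lost without any 1 of the 4 arrays (limma adjusted p from 0.0602 to 0.0789), and that of Kcnk6 without replicate 1, 2 or 4 (adjusted p up to 0.101).

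Relatives within the same groups did not pass. Kcnk2, the other stretch-sensitive TREK channel gene, had a log2 ratio of 0.30 ± 0.26 (SD, n = 4, limma adjusted p = 0.434), and Kcnk4, also of the mechanosensitive channels, had 0.64 ± 0.10 (adjusted p = 0.114). Kcnk9, the close relative of Kcnk3, had -0.24 ± 0.44, and Kcnk1, that of Kcnk6, had 0.20 ± 0.15. The differences between these genes and their called relatives were not tested. Kcnk4, Kcnk9 and Kcnk1 were chosen after their values were seen.

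Voltage-gated and calcium- or sodium-activated potassium channel genes were the largest class, with 36 tested of 45, and 1 of them was called. Kcna5 encodes a Shaker-type delayed rectifier, a channel that opens on depolarisation and ends it. Its signal was 215, 353, 202 and 311 in mucosa cells and 866, 840, 1095 and 903 in bulb cells. Values within each tissue were close and those of the tissues did not overlap. Kcna5 was 3.50-fold lower in mucosa cells, at -1.81 ± 0.52 (SD, n = 4, limma adjusted p = 0.0156), and the call was lost without replicate 1 (adjusted p = 0.0723).

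Kcnt1, a sodium-activated potassium channel gene, lay just outside the threshold. Its signal was 102, 113, 82 and 70 in mucosa cells and 218, 170, 241 and 303 in bulb cells, and it rose well above background on 2 mucosa and 4 bulb arrays. It therefore passed the filter only through bulb cells, where it was the brighter, and the size of its ratio is uncertain. The log2 ratio was -1.34 ± 0.65 (SD, n = 4, limma adjusted p = 0.0502). Kcnt1 was called with no background subtraction (limma adjusted p = 0.0411), a normexp offset of 16 (0.0489) and median centring (0.0333). The mean over probes (0.0467) and unpaired channels (0.0110) also called it, and the other alternatives did not. The other Shaker-type genes described did not pass, with 0.15 ± 0.11 for Kcna1 (adjusted p = 0.677) and 0.36 ± 0.12 for Kcna2 (adjusted p = 0.318). Kcna2 stood well above background on 4 mucosa and 0 bulb arrays, so it passed the filter only through mucosa cells and its exact ratio is uncertain. Its signals were 97 to 124 in mucosa cells and 81 to 86 in bulb cells. With median centring in place of loess its log2 ratio was -0.053, and with the processed signals of the scanner software it was 1.05.

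Calcium-activated channel genes did not pass either. Kcnma1, the large-conductance channel gene, had a log2 ratio of -0.33 ± 0.93 (SD, n = 4, limma adjusted p = 0.623), with -1.66 on replicate 1 and between -0.29 and 0.35 on the others. Kcnn1, of the small-conductance channels, had -0.77 ± 0.18 (adjusted p = 0.0770) with non-overlapping signals, and Kcnn4, the intermediate-conductance channel gene, had 0.60 ± 0.33 (adjusted p = 0.168). Kcng1 and Kcns3 encode subunits that form no channel alone but modify others, and had large but uneven ratios. Kcng1 ranged from 0.0035 on replicate 2 to 2.64 on replicate 4, with a mean of 1.27 ± 1.08 (adjusted p = 0.136). Kcns3 had -1.52, 0.76, -2.61 and -2.53 on replicates 1 to 4 (mean -1.48 ± 1.57, adjusted p = 0.186), so 1 array opposed the other 3. It was well above background on 2 mucosa and 4 bulb arrays, with mucosa signals of 71 to 88 on replicates 1, 3 and 4, so the sizes of those ratios are uncertain. Kcnn1, Kcnn4, Kcng1 and Kcns3 were chosen after their values were seen.

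Inward rectifiers carry potassium into the cell at negative potentials and are the channels best known for potassium uptake by glia. Of 12 tested genes of 15, 0 passed by limma (2 at an unadjusted p under 0.05). Such p-values were common over all names: for Trpv2 an unadjusted limma p of 0.0495 went with an adjusted p of 0.209. The share of all names under that mark was not counted, so the 2 are not read as a result. The largest mean ratio among the inward rectifiers was that of Kcnj5, a G protein-gated channel gene, at 0.85 ± 0.29 (SD, n = 4, limma adjusted p = 0.0723). It had 0.51, 0.76, 1.18 and 0.96 on the arrays. All 4 arrays were higher in mucosa cells. Kcnj10, the main inward rectifier of astrocytes and many other glia, had nearly the same mean, 0.85 ± 1.63 (adjusted p = 0.429), but from -0.21, 0.32, 0.010 and 3.27. Replicate 4 alone was far above 0, and the other ratios lay on both sides of 0. Kcnj2 had -0.40 ± 0.83 (adjusted p = 0.511). In this class 1 of 12 genes had the same sign on all 4 arrays.

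Accessory subunits attach to potassium channel pores and change their gating or transport, and 0 of 13 tested genes (of 14) passed by limma. At an unadjusted p under 0.05, a mark met by many of all names, there were 2. With the share of all names not counted, these 2 are not read as an excess. Kcnmb4, the beta subunit that slows the large-conductance channel in neurons, had the largest mean ratio, -1.70 ± 1.39 (SD, n = 4, limma adjusted p = 0.113). It was lower in mucosa cells on replicates 1 to 3, at -2.60, -1.89 and -2.64, and not on replicate 4, at 0.32. Without replicate 4 it was called, at -2.38 (adjusted p = 0.0214). Kcne4, a small single-span subunit, split by array: 0.31 and 0.22 on replicates 1 and 2 and -2.94 and -3.14 on replicates 3 and 4 (mean -1.39 ± 1.91, adjusted p = 0.277). It was well above background on 2 mucosa and 4 bulb arrays, and with mucosa signals of 73 and 76 on replicates 3 and 4 the sizes of the ratios there are uncertain. Kcnmb3 split the same way with the sign turned, 2.25 and 1.80 against -0.56 and -0.27 (mean 0.80 ± 1.43, adjusted p = 0.401). It was well above background on 4 mucosa and 3 bulb arrays. With bulb signals of 104 and 95 on replicates 1 and 2, the sizes of the ratios there are uncertain too. Kcne4 and Kcnmb3 were chosen after their values were seen.

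Across all potassium channel genes the sum was 2 higher and 2 lower of 70 tested, or 5.71%, with a median log2 ratio of 0.19.

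**Figure D3:**
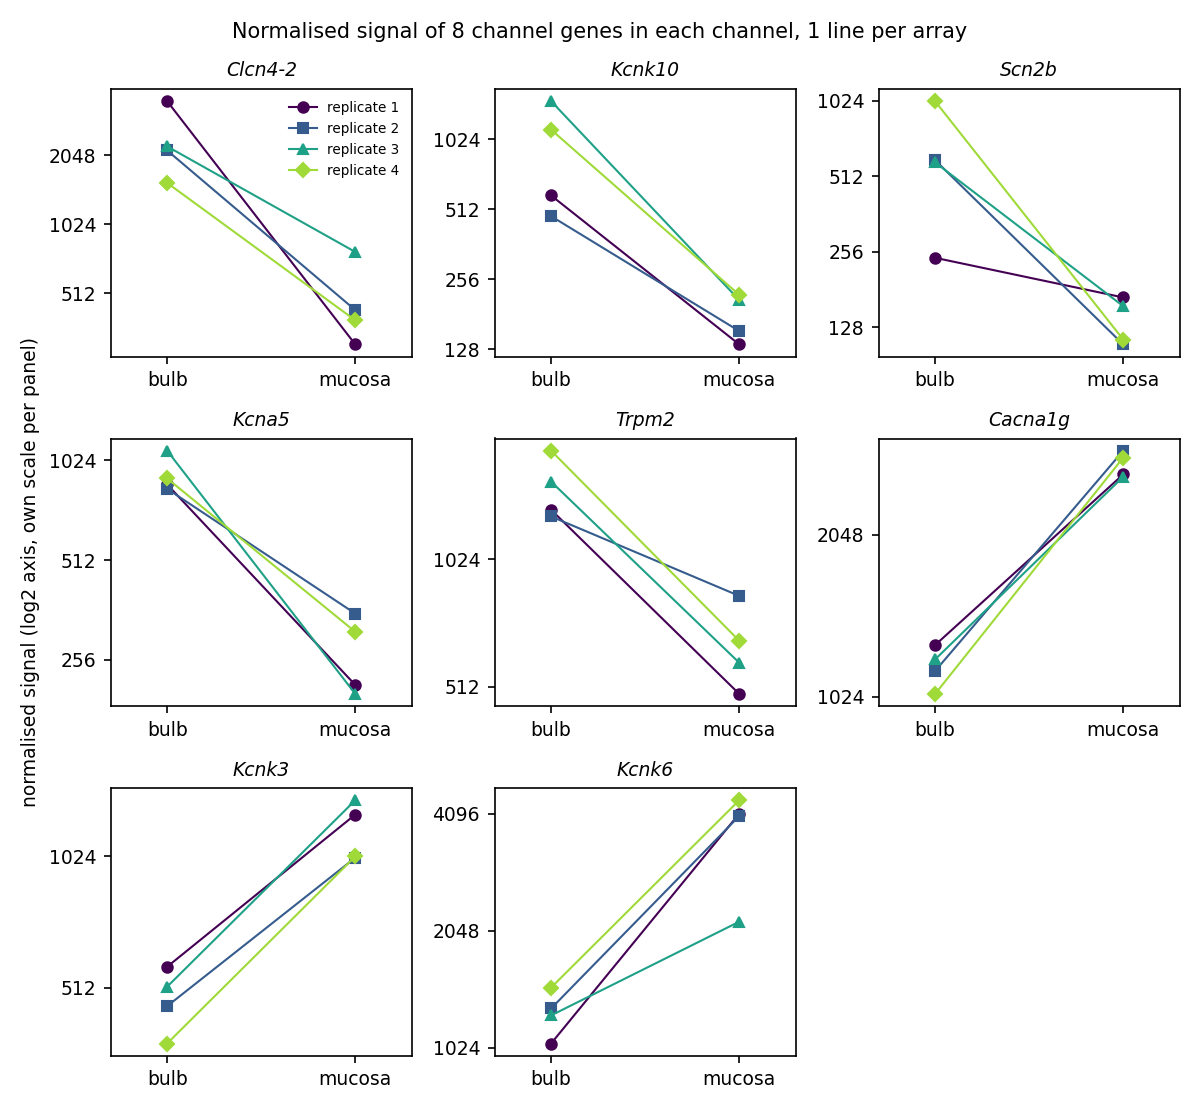
Normalised signal of 8 called channel genes in bulb (Cy3) and mucosa (Cy5) cells on a log2 axis with its own scale per panel, with 1 line for each of the 4 arrays. In each panel the lines run the same way and the values of the tissues do not overlap; Scn2b of replicate 1 has the flattest line, from 242 in bulb to 168 in mucosa cells.

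Sodium channels are made of a pore-forming alpha subunit and small beta subunits that tune gating and also act as adhesion molecules of the immunoglobulin type. Of the 13 genes of the group 12 were tested, with a median log2 ratio of -0.26.

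Scn2b, a beta subunit gene, was lower in mucosa cells and lay just inside the threshold. Its signal was 168, 109, 155 and 114 in mucosa cells and 242, 594, 582 and 1022 in bulb cells. Replicate 1 had the lowest bulb and the highest mucosa value, so the gap between tissues there was small. Scn2b was 4.04-fold lower in mucosa cells, at -2.01 ± 1.12 (SD, n = 4, limma adjusted p = 0.0460), with log2 ratios from -3.17 to -0.53. It was no longer called without replicate 2, 3 or 4 (adjusted p up to 0.145), with the deposited ratio (-2.71, adjusted p = 0.0663), with no filter (0.0642) and with the GC trend removed (0.0508).

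Of other beta subunit genes, Scn3b had -0.56 ± 0.70 (SD, n = 4, limma adjusted p = 0.323), and Scn4b, whose probes lie on chromosome 8 as does that of Scn2b, had 0.13 ± 0.84 at its brighter probe and -1.27 ± 0.79 at the other. Neither passed, and both were chosen after their values were seen.

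Among alpha subunit genes, Scn1a lay close to the threshold, at -1.17 ± 0.53 (SD, n = 4, limma adjusted p = 0.0546), and was lower in mucosa cells on all 4 arrays. Its signals were low and overlapped, at 99 to 237 in mucosa cells and 181 to 382 in bulb cells. It was well above background on 3 mucosa and 4 bulb arrays. It was called with a normexp offset of 16 (limma adjusted p = 0.0477) and with median centring (0.0454). Scn7a, a sodium-sensing channel of glia and other non-excitable cells, had -1.25 and -1.28 on replicates 1 and 2 but -0.088 and 0.014 on replicates 3 and 4 (mean -0.65 ± 0.71, adjusted p = 0.263). Scn8a, the main channel of the nodes of Ranvier, had 0.11 ± 0.40 (adjusted p = 0.804) at the brighter probe and -1.01 ± 0.65 at the other. Scn2a1, an alpha gene whose array symbol falls outside the naming rule, had 0.73 ± 0.44 (adjusted p = 0.137). Scn1a was chosen after its values were seen.

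Calcium channels have a pore-forming alpha1 subunit with alpha2delta, beta and gamma partners, and 1 of 23 tested genes (of 25) passed. This was Cacna1g, which encodes a T-type channel that opens near the resting potential. Its signal was 2652, 2934, 2625 and 2849 in mucosa cells and 1278, 1144, 1202 and 1037 in bulb cells. The values within each tissue were close and the tissues did not overlap. Cacna1g was 2.38-fold higher in mucosa cells, at 1.25 ± 0.19 (SD, n = 4, limma adjusted p = 0.0206). Without any 1 of the 4 arrays the call was lost (adjusted p from 0.0566 to 0.101), while the ratio stayed between 1.18 and 1.31.

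The other calcium channel genes mostly had ratios a little above 0, with 18 of 23 positive and a median log2 ratio of 0.30. Cacna1c, the L-type channel of heart, muscle and brain, had 0.048 ± 0.37 (SD, n = 4, limma adjusted p = 0.916). Cacna2d1, the alpha2delta subunit that binds gabapentin, had -0.29, 0.19, -0.59 and 2.20 on the 4 arrays (mean 0.38 ± 1.25, adjusted p = 0.662), so replicate 4 stood apart. The gamma family includes subunits of calcium channels and of glutamate receptors, and 7 of its 8 genes were above 0. The count was 6 with median centring, no background subtraction, the processed signals, the deposited ratio or the GC trend removed. It was also 6 without replicate 2 or without replicate 4. Cacng4, the exception, had 0.064, -1.47, -2.45 and -1.94 (mean -1.45 ± 1.09, adjusted p = 0.101), and Cacng3 had 0.068, 1.34, 0.20 and 2.68 (mean 1.07 ± 1.21, adjusted p = 0.221). Both were chosen after their values were seen.

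All 7 chloride channel and transporter genes were tested, and 1 passed. Clcn4-2 encodes a chloride-proton exchanger of intracellular membranes and had the largest absolute ratio of the whole channel set. Its signal was 305, 431, 774 and 389 in mucosa cells and 3533, 2152, 2241 and 1552 in bulb cells. Every bulb value was above every mucosa value, with the widest gap on replicate 1 and the narrowest on replicate 3. Clcn4-2 was 5.08-fold lower in mucosa cells, at -2.35 ± 0.86 (SD, n = 4, limma adjusted p = 0.0168). Its other probes, farther along the transcript, had -3.43 ± 0.61 and -3.23 ± 0.37, and with the mean over probes the gene passed at an adjusted p of 0.00273. The call was lost without replicate 2 (adjusted p = 0.0671).

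Clcn2, the inwardly rectifying plasma membrane channel of glia, was lower in mucosa cells on all 4 arrays, at -0.33, -0.55, -1.92 and -1.48 (mean -1.07 ± 0.75, SD, n = 4), without passing (limma adjusted p = 0.111). The endosomal exchanger genes Clcn3 and Clcn5 had -0.30 ± 0.75 (adjusted p = 0.605) and 0.036 ± 0.37 (adjusted p = 0.936). Clcn6, of late endosomes, had -0.32 ± 0.46, and Clcn7, the lysosomal exchanger, had 0.73 ± 0.82 (adjusted p = 0.254) with 1.96 on replicate 4 and 0.28 to 0.39 on the others. Clcn1, best known as the chloride channel of skeletal muscle, had 0.90 ± 0.46 (adjusted p = 0.0899). The group of 7 thus had 0 higher and 1 lower, or 14.3%. Clcn1, Clcn5, Clcn6 and Clcn7 were chosen after their values were seen.

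TRP channels had 0 higher and 1 lower of 19 tested genes (of 20), or 5.26%, with a median log2 ratio of -0.058. The lower gene was Trpm2, a calcium-permeable channel opened by ADP-ribose and oxidants. Its signal was 492, 839, 583 and 657 in mucosa cells and 1341, 1293, 1563 and 1850 in bulb cells. Replicate 2 had the highest mucosa and the lowest bulb value. Trpm2 was 2.37-fold lower in mucosa cells, at -1.25 ± 0.42 (SD, n = 4, limma adjusted p = 0.0339), with -0.62 on replicate 2 and -1.42 to -1.49 on the others. The call was lost without any 1 of the 4 arrays (adjusted p from 0.0656 to 0.114) and with the deposited ratio (adjusted p = 0.0598).

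Of the 8 melastatin genes, Trpm2 included, 7 had a negative mean, or 6 with median centring in place of loess. Without replicate 1 only 4 of 8 were negative, and the class median moved from -0.41 to -0.048. Trpm4, a monovalent cation channel gated by calcium, had -0.78 ± 0.52 (SD, n = 4, limma adjusted p = 0.142). Trpm7, a magnesium-permeable channel joined to a kinase, had -0.54 ± 0.87 (adjusted p = 0.399), and Trpm3, a heat- and steroid-sensitive channel, had -2.96, -0.59, 0.14 and 0.60 on the 4 arrays (mean -0.70 ± 1.58, adjusted p = 0.50). Of the vanilloid genes, Trpv4, which senses osmotic swelling and warmth, was higher in mucosa cells on all 4 arrays, at 0.58, 1.03, 0.69 and 1.01 (mean 0.83 ± 0.23, adjusted p = 0.0695), and Trpv2 likewise, at 0.47 ± 0.14 (adjusted p = 0.209). For both the signals of the tissues did not overlap. Trpc1, a canonical TRP gene, had 0.74 ± 0.61 (adjusted p = 0.182). Trpm4 was chosen after its values were seen.

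**Figure D4:**
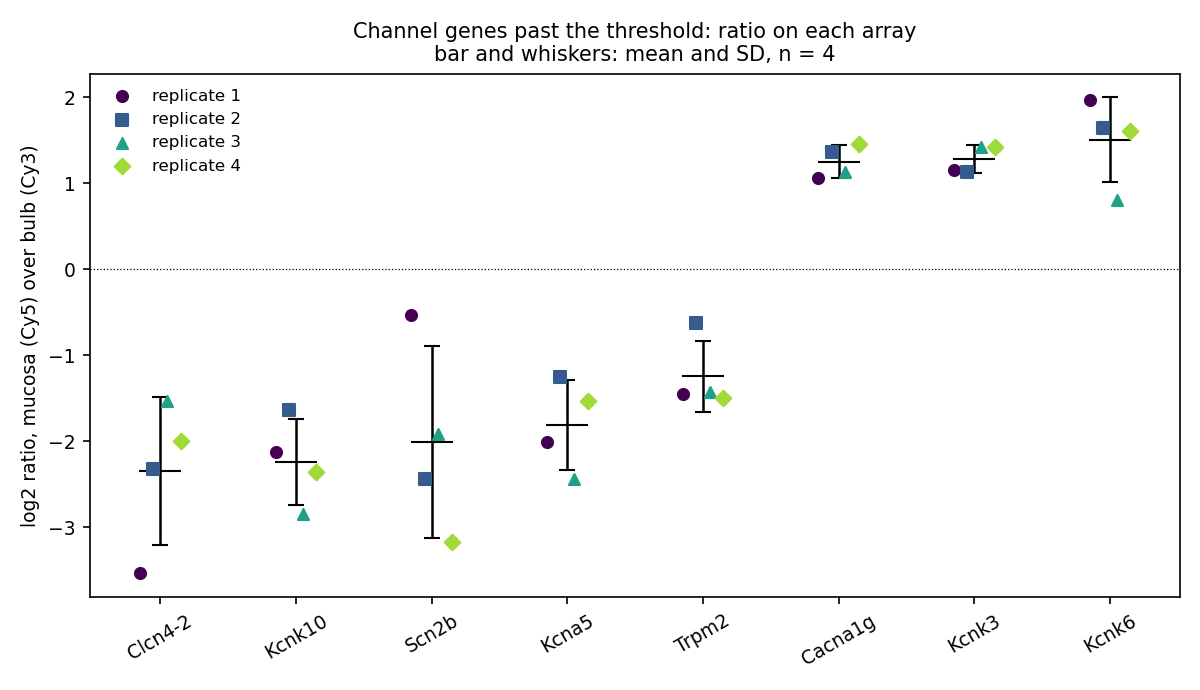
Log2 ratio of mucosa (Cy5) over bulb (Cy3) on each of the 4 arrays (symbols) for 8 called channel genes, with mean and SD (bars and whiskers). Cacna1g and Kcnk3 have the narrowest spread (SD 0.19 and 0.16) and Scn2b the widest (SD 1.12).

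Several channel genes were read by more than 1 probe, so the ratios of their probes can be compared. Why probes of the same gene differed was not tested. In 21 genes several probes were tested. The signs of the probes differed in 8 of these, and in 6 the probes lay more than 1 apart on the log2 scale. The probes agreed closely for Kcnk6 (1.42 and 1.50) and had 1 direction for Clcn4-2. For Scn4b (0.13 and -1.27) and Scn8a (0.11 and -1.01), the brighter probe lay above 0 and the other below. The probes of Kcnd3, which encodes a transient potassium channel and was chosen after its values were seen, were both below 0, at -0.17 and -1.24.

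**Figure D5:**
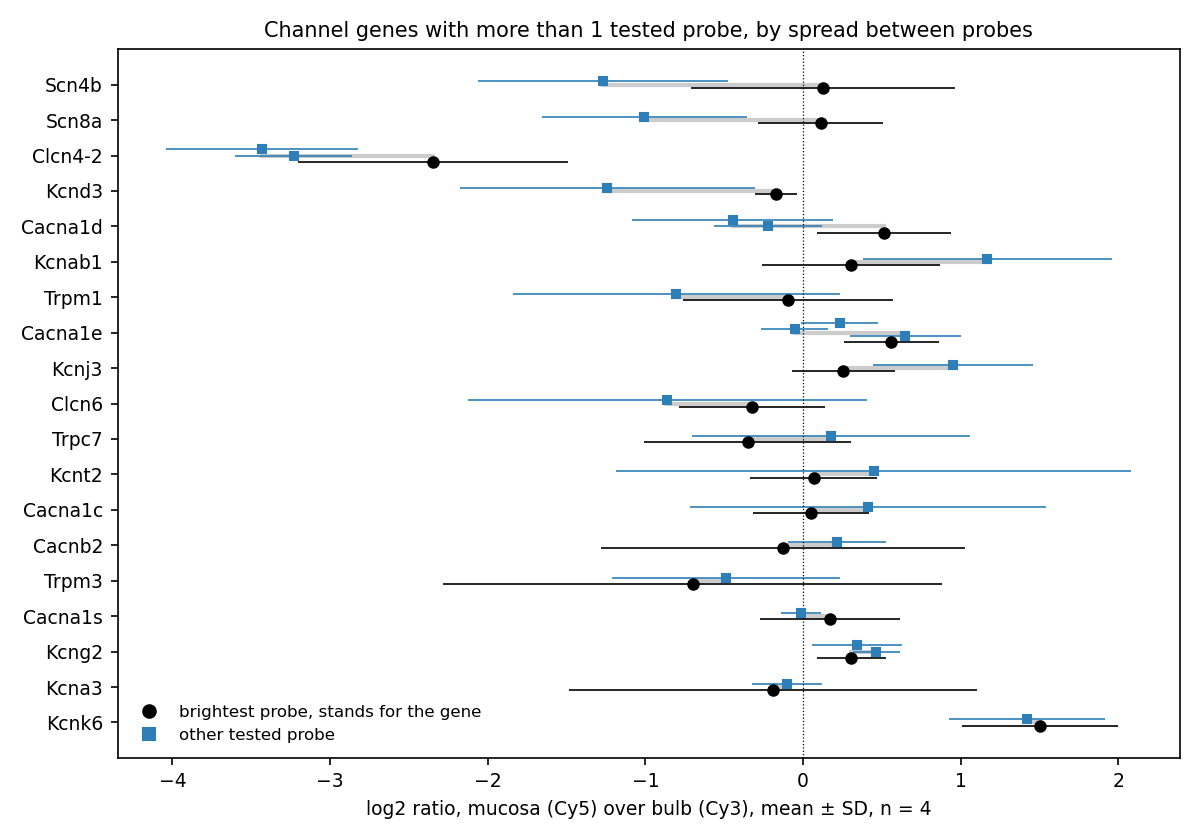
Log2 ratio of mucosa (Cy5) over bulb (Cy3), mean ± SD over 4 arrays, of each tested probe of 19 channel genes with more than 1; black circles are the brightest probe, which stands for the gene, and blue squares the others. Genes are ordered by the spread between probes, from Scn4b (0.13 and -1.27) to Kcnk6 (1.42 and 1.50).

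A list of other genes of ion and water transport, mostly channels but with the aquaporins and the Stim calcium sensors among them, had 2 higher and 4 lower of 54 tested genes, with a median log2 ratio of 0.034. The higher ones were Aqp1, a water channel, at 2.56 ± 0.61 (SD, n = 4, limma adjusted p = 0.00678), and Itpr1, the calcium release channel of the endoplasmic reticulum, at 1.29 ± 0.55 (adjusted p = 0.0431). Lower were Accn1, an acid-sensing sodium channel gene, at -1.88 ± 0.65 (adjusted p = 0.0189), and Stim2, a calcium sensor that opens store-operated channels, at -1.51 ± 0.46 (adjusted p = 0.0215). Panx1, a large-pore channel gene, was lower at -1.49 ± 0.66 (adjusted p = 0.0379), as was Vgcnl1, the sodium leak channel gene, at -1.09 ± 0.42 (adjusted p = 0.0493). Among channel partners such as ankyrins, contactins and scaffold proteins, 0 of 15 tested genes passed by limma. At an unadjusted p under 0.05, a mark met by many of all names, there were 4. With the share of all names not counted, these 4 are not read as an excess.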

How the data were processed

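Cultured ensheathing cells of rat olfactory mucosa (Cy5) and bulb (Cy3) were measured on 4 two-colour Agilent arrays, 1 per paired replicate. Per the labels' protocols, cDNA was amplified by a global PCR, which can change the ratio of transcripts. Spots and their local background were deposited as intensity on a linear scale, read with Agilent Feature Extraction 10.5.1.1 per the file headers (9.1 per the submitters' processing notes). The deposited log10 ratio is of background-subtracted, dye-normalized signals, per the file headers. The value table holds the same ratios.

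Signals were corrected with normexp (offset 50) and normalized by loess within arrays in limma 3.58.1 under R 4.3.3. Controls and outliers were dropped, and repeated spots of a probe averaged. Probes well above background in at least 0.5 of their spots on at least 3 arrays in 1 channel were kept. The brightest probe stood for each name. The mean log2 ratio was tested against 0 with lmFit and eBayes over 31868 names, and p-values were adjusted by Benjamini-Hochberg (threshold 0.05). P-values rest on the spread between 4 replicates, which eBayes moderates with a variance estimated over all names (6.36 degrees of freedom after moderation). Signals per channel were also scaled by Aquantile, and are compared only within a probe. The fit was tested on simulated data. Figures were drawn with matplotlib 3.10.9.

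Values are given for called genes (at most 8 per class), else the largest per class, genes fixed by name, and the genes next to the threshold. The channel genes and all lists were chosen with earlier results of these data known. Alternatives were other backgrounds, offsets, normalizations, filters, probe rules, variance models, unpaired channels, removal of the GC trend, and each array left out. Results of a few genes are not reported here, and the plots leave them out.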

Additional observations from a re-analysis of the deposited data

Results flagged for a closer look

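On 3 channel genes named above, 1 array stood apart from the other 3, by a gap that took more than the usual share of the range of 4 values. For Trpm2 the gap was 0.918 of the range, with replicate 2 (-0.62) nearer to 0 than the others. For Kcnj10 it was 0.848, with replicate 4 (3.27) far above the others, and for Clcn7 it was 0.935, with replicate 4 (1.96) above the others. Chance flags about 1 group in 20, and 16 of all 131 tested channel genes were past the same limit.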

How the results depend on the processing

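The count of 9 called channel genes lay between 7 and 13 in 14 of 15 alternatives, and was 5 with a trended and robust variance. With each replicate left out in turn it was between 3 and 5. Calls of Kcnk10, Kcnk3, Cacna1g and Clcn4-2 held in each of the 15 alternatives; Kcna5 and Kcnk6 were lost only with the trended and robust variance (adjusted p = 0.0508 and 0.0504), Trpm2 in 3 and Scn2b in 5 alternatives. No called gene changed sign in any of them. The 15 were not independent checks. Aquantile, leaving out saturated spots and fitting every probe on its own kept the main ratios of these genes. The processed signals and the deposited ratio gave nearly identical ratios. With channels as unpaired samples, without the replicate block, 13 channel genes and 3150 of all names were called, against 2110. The processed signals and the deposited ratio gave the same counts, 7 channel genes and 1436 names, and 0 channel spots were saturated. Median centring moved the median of all names from 0.012 to 0.079 and called 12 channel genes; the medians of the canonical TRP and sodium alpha classes then changed sign, from 0.060 to -0.057 and from -0.078 to 0.045. Of all names, 898 were called with the trended and robust variance, and between 601 and 1162 with 1 array left out. Channel probes detected in mucosa and bulb cells were 141 and 149 on all 4 arrays, and 170 and 170 by the scanner software's weaker flag. Dim probes limit the smaller ratios.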
